A study of Mus musculus with 2 samples.

Results

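The 8 genes Cldn5, Ocln, Tjp1, Cdh5, Esam, Jam2, Pecam1 and F11r, which encode proteins of the tight and adherens junctions between endothelial cells, were followed in single cells of the mouse spinal cord. They were chosen by symbol, and each of the 8 matched 1 of the 27998 genes in the count matrices. The tissue came from C57BL/6J mice of the strain Cx3cr1-CreERT2-YFP::flxRunx1, in which the Cx3cr1 locus, active in microglia and other mononuclear phagocytes, drives yellow fluorescent protein and a Cre recombinase that tamoxifen switches on, and in which Runx1 is floxed. One library came from mice labelled Runx1 knock-out that had 5 daily injections of tamoxifen at 1 mg per day, and 1 library came from mice labelled wild type that had vehicle injections. Fluorescent cells were sorted from both 4 weeks after the first injection and made into 10x Chromium 3′ v2 libraries. Genotype label, tamoxifen and library cannot be told apart in this design, and the sources used here do not give the age, sex or number of mice behind either library. The Cre driver is not known for activity in endothelium.

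Endothelial cells of the brain and spinal cord are sealed to one another by tight junctions, which limit passage between cells and form part of the blood-brain and blood-spinal cord barrier, and are held together by adherens junctions. Claudins and occludin are the membrane proteins of the tight junction strand, the junctional adhesion molecules and ESAM are immunoglobulin-family proteins beside it, and ZO-1 ties the strand to actin. VE-cadherin is the endothelial cadherin of the adherens junction, and PECAM-1 joins endothelial cells along their borders outside both structures.

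All 8 genes are protein-coding in GENCODE M21 on GRCm38. Cldn5 (ENSMUSG00000041378, claudin-5) lies at chr16:18776847-18778262 on the plus strand. Ocln (ENSMUSG00000021638, occludin) lies at chr13:100496507-100552718 on the minus strand, and Tjp1 (ENSMUSG00000030516, ZO-1) at chr7:65296165-65527781 on the minus strand. Cdh5 (ENSMUSG00000031871, VE-cadherin) lies at chr8:104101625-104144511 on the plus strand, and Esam (ENSMUSG00000001946) at chr9:37528078-37538319 on the plus strand. Jam2 (ENSMUSG00000053062, JAM-B) lies at chr16:84774123-84825928 on the plus strand, and F11r (ENSMUSG00000038235, JAM-A) at chr1:171437535-171464603 on the plus strand. Pecam1 (ENSMUSG00000020717) lies at chr11:106654217-106750628 on the minus strand. None of the 5 annotated genes that overlap a member (3 at Tjp1, 1 at Cdh5 and 1 at Jam2) has a row in the matrices.

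The RefSeq promoter table for GRCm38.p6 held 4 of the 8 genes: Cldn5, Ocln, Tjp1 and F11r. The windows of Cldn5 and F11r are shown because the results turn on the contrast between these genes: Cldn5 RNA was highest in endothelial-like cells, and F11r was the only member whose RNA was higher in microglia-like cells. Each window runs from 250 bases before to 50 bases after the start, at chr16:18776597-18776896 for Cldn5 and chr1:171437311-171437610 for F11r, both on the plus strand. Capitals mark the GC box core GGGCGG, the box core CCAAT and the ETS-type core GAGGAA, read on either strand, and no match overlapped another.
Cldn5: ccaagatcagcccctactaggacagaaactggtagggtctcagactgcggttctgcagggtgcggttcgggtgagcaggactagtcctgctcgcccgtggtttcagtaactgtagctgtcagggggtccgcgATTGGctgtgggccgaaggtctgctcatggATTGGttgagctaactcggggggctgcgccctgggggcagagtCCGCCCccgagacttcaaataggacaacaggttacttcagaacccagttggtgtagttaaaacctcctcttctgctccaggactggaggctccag
F11r: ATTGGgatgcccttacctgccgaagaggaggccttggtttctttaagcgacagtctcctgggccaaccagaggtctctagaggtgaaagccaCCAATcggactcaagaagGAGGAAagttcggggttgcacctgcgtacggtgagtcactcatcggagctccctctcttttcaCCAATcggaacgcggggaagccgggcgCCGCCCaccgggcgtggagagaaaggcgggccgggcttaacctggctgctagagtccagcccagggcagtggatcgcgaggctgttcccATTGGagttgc
The Cldn5 window held 1 GGGCGG and 2 CCAAT, and the F11r window held 1 GGGCGG, 4 CCAAT and 1 GAGGAA, a core found in many ETS-factor motifs. GGGCGG occurred in 35.7% of all 32851 promoter windows of this length, CCAAT in 37.4% and GAGGAA in 28.3%, so a match to any of these is common. TATAAA, present in 13.6% of windows, was in neither. The GC content was 58.3% for Cldn5 and 60.3% for F11r, beside a median of 52.7% over all windows.

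The knock-out-labelled matrix held 13075939 UMIs in 2604 barcodes and the wild-type-labelled matrix 37446978 UMIs in 4582, with medians of 3715.5 and 6376 UMIs per barcode, and 9 barcode sequences occurred in both. Runx1, the targeted gene, was higher under the knock-out label in microglia-like cells, which had 180 CPM (170 to 191; UMIs of a gene per 1000000 UMIs of the same cells) in the knock-out-labelled library and 93.0 CPM (88.3 to 97.9) in the wild-type-labelled library, from 3′ tags that need not lie in the floxed part. Endothelial-like cells had 18.9 CPM of Runx1 (14.9 to 23.7) and 27.9 CPM (25.0 to 31.0) in that order. Clusters, made without any junction gene, were named from marker lists without the 8 members, and this gave 843 and 1640 endothelial-like cells, 121 and 182 mural-like cells and 1354 and 2156 microglia-like cells. All 17 endothelial markers were detected in endothelial-like cells of each library, although the sort was for fluorescence from a microglial locus. The libraries stood apart in the clustering: 811 of the endothelial-like cells labelled knock-out lay in cluster 3 and 1565 of those labelled wild type in cluster 1, and the microglia-like cells lay in cluster 2 (1349 cells) and cluster 0 (2156 cells) in the same order of labels. With 1 library per group no test between groups is possible, and every interval is a 95% interval of counting error within these 2 libraries.

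Endothelial-like cells held RNA of all 8 genes in both libraries. Each level is the CPM of a class, its cells pooled. Cldn5 had 7455 CPM (7371 to 7540, from 29955 UMIs) under the knock-out label, against 6977 CPM (6930 to 7025, from 83818 UMIs) under the wild-type label. It gave 74.4% and 75.8% of the UMIs of the 8 genes in these cells. Because tags are counted at the 3′ end, with no correction for capture of each transcript, the genes are not ranked against each other beyond that share.

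The other strand protein, occludin, had 195 CPM of Ocln RNA (182 to 210) in endothelial-like cells labelled knock-out and 135 CPM (128 to 141) in those labelled wild type. Tjp1, whose product is the scaffold under the strand, had 200 CPM (186 to 214) and 167 CPM (160 to 175) in that order of libraries. Neither pair of intervals overlapped.

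Among the immunoglobulin-family members, Esam had 971 CPM (941 to 1002) under the knock-out label and 949 CPM (932 to 967) under the wild-type label, intervals that overlapped. Jam2 had 249 CPM (234 to 265) and 203 CPM (195 to 212), and F11r had 332 CPM (314 to 350) and 295 CPM (285 to 304), knock-out label first. Cdh5 RNA of the adherens junction stood at 227 CPM (212 to 242) in the knock-out-labelled library and 169 CPM (162 to 176) in the other. Pecam1 stood at 394 CPM (375 to 414) and 315 CPM (305 to 325).

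As log2 ratios of the knock-out over the wild-type label, Ocln had 0.54 (0.41 to 0.66), Cdh5 0.43 (0.31 to 0.54), Pecam1 0.32 (0.24 to 0.41), Jam2 0.29 (0.18 to 0.40), Tjp1 0.25 (0.13 to 0.37), F11r 0.17 (0.08 to 0.26), Cldn5 0.10 (0.08 to 0.11) and Esam 0.03 (-0.02 to 0.09). None of the 8 was past 1.5-fold with an interval off equality, against 11.3% of the 6291 genes at 20 CPM or more in either library. All 8 ratios were above 0 and their median was 0.27, beside 61.5% above 0 and a median of 0.09 over all 6291 genes. The direction depends on the scaling for the 2 members with the smallest ratios: with TMM factors Cldn5 stood at -0.00 and Esam at -0.07, and with the 17 endothelial markers as the total they stood at -0.02 and -0.08. The other 6 kept ratios above 0 under both, from 0.06 for F11r to 0.44 for Ocln; the marker total moved every ratio by -0.12. The cells labelled knock-out carried less microglial RNA, 5445 CPM of the 12 microglia markers against 13675 CPM in the cells labelled wild type. In the 50% of cells with the lowest such share Ocln had 0.51, Cdh5 0.26, Pecam1 0.29 and Jam2 0.34. This subset cannot even out the libraries. With each library split into equal parts by that share, the lowest part labelled wild type still held 11585 CPM of the microglia markers. The highest part labelled knock-out held 7606 CPM. The part of microglial RNA in these ratios is thus not tested by the subset. With a background of the make-up of the whole library taken out, its size set by those markers, Tjp1 stood at -0.08, Pecam1 at -0.07, Cldn5 at -0.21 and Esam at -0.26, while Ocln stood at 0.12, Cdh5 and Jam2 at 0.03 and F11r at 0.62. The common direction of the 8 ratios was thus absent under that alternative.

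**Figure D1:**
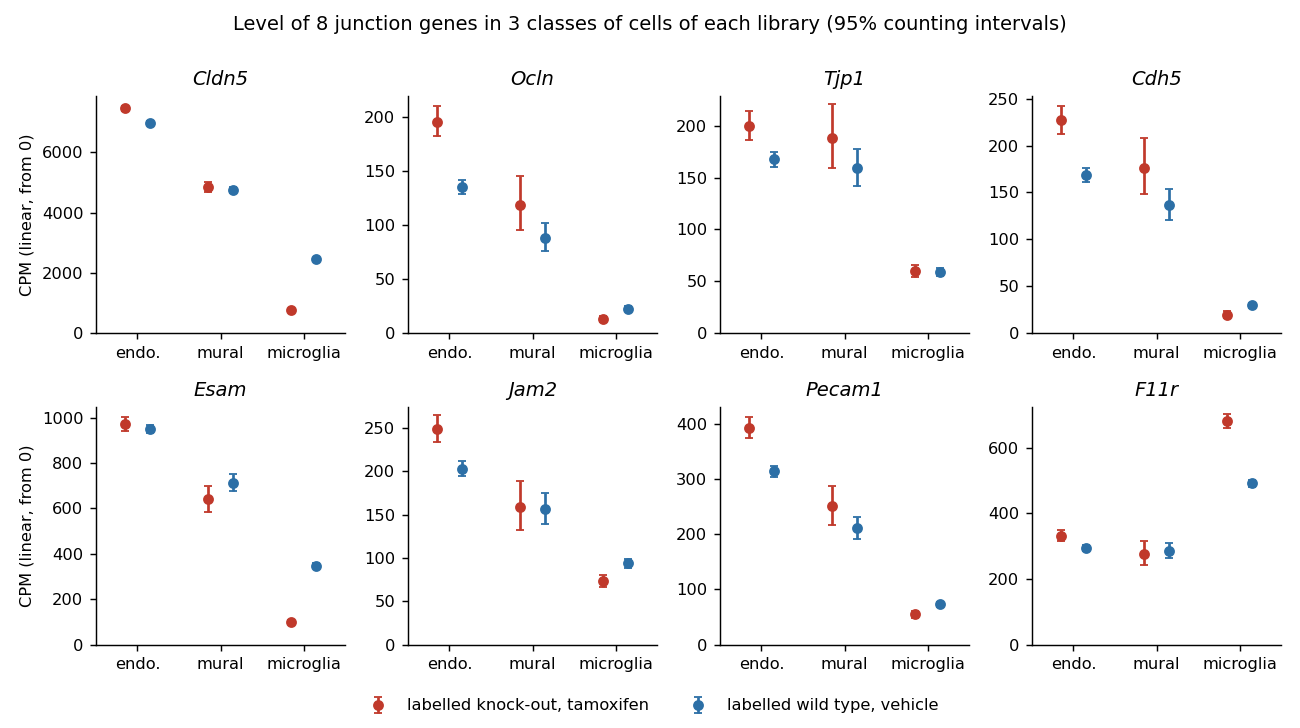
Level of each gene (CPM, linear axis from 0) in endothelial-like, mural-like and microglia-like cells of the knock-out-labelled library (red) and the wild-type-labelled library (blue); bars are 95% counting intervals. Cldn5, Ocln, Tjp1, Cdh5, Esam, Jam2 and Pecam1 were lowest in microglia-like cells of each library, and F11r was highest there, at 681 and 492 CPM.

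Per cell, Cldn5 was present in nearly every endothelial-like cell and the other members in fewer. With each cell thinned to 1500 UMIs, which left out no cell, a Cldn5 UMI was found in 99.9% of the 843 endothelial-like cells labelled knock-out and 100% of the 1640 labelled wild type. An Esam UMI was found in 74.3% and 77.9%, a Pecam1 UMI in 47.4% and 37.4%, and an F11r UMI in 40.9% and 33.7% of these cells, knock-out label first. Jam2, Cdh5, Ocln and Tjp1 were each found in 22.4% to 32.4% of cells labelled knock-out and 19.3% to 26.0% of cells labelled wild type. Unthinned shares depend on how many UMIs a cell gave: an F11r UMI was then found in 71.5% and 81.0% of the cells, at median depths of 3580 and 5969.5 UMIs. Across thinned endothelial-like cells the variance of Cldn5 was 2.28 times its mean in cells labelled knock-out and 1.63 times its mean in cells labelled wild type, at means of 11.7 and 10.9 UMIs. The other 7 lay at 0.95 to 1.15 times, at means of 0.211 to 1.53 UMIs, and because this ratio grows with the mean the genes are not compared by it.

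Cldn5 differed between endothelial types. Sub-clusters led by arterial markers (191 and 430 cells) and by venous markers (130 and 297 cells) were set against the remaining endothelial-like cells (522 and 913), whose capillary list was highest but which were not named. Cldn5 had 6670 CPM in arterial-like, 6444 CPM in venous-like and 8447 CPM in remaining cells labelled knock-out. The same 3 types labelled wild type had 6531, 6649 and 7482 CPM. In this grouping Cldn5 was thus lower in both larger-vessel types in each library, by log2 ratios of -0.34 and -0.39 under the knock-out label and -0.20 and -0.17 under the wild-type label. The sign in venous-like cells labelled knock-out depended on how the cells were grouped, as given below with Tjp1. The summed other endothelial markers were lower in both types too, by a smaller proportion than Cldn5 in each library. They summed to 22836.5, 20040 and 23653.5 CPM in arterial-like, venous-like and remaining cells labelled knock-out. Under the wild-type label they summed to 20732, 19536 and 21458 CPM. Whether the larger Cldn5 difference goes beyond the spread among single markers was not tested.

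Tjp1 was higher in venous-like cells. It had 265 CPM (236 to 296) in venous-like against 184 CPM (166 to 204) in remaining cells labelled knock-out, a log2 ratio of 0.52 (0.30 to 0.75). Under the wild-type label it had 228 CPM (213 to 244) against 140 CPM (130 to 150), a log2 ratio of 0.71 (0.56 to 0.85). In arterial-like cells Tjp1 stood at -0.33 (-0.63 to -0.04) and 0.02 (-0.15 to 0.20), and only the first of these intervals was off equality. The venous-like values of the knock-out-labelled library depend on how the cells were grouped: with each library clustered on its own, Tjp1 stood at -0.36, Cldn5 at 0.28 and Esam at 0.55 there. Under the wild-type label Tjp1 ran from 0.68 to 1.07 over the alternatives.

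Esam ran with Cldn5, at -0.35 and -0.37 in arterial-like and venous-like cells labelled knock-out and -0.29 and -0.16 in those labelled wild type. Ocln was also below the remaining cells in each type and library, at -0.29 to -0.22, with an interval that reached equality in arterial-like cells labelled knock-out. Cdh5, Pecam1, Jam2 and F11r had no interval on the same side of equality in both libraries. No member was past 2-fold in either type, against 3.83% and 3.32% of all genes for arterial-like and venous-like cells labelled knock-out and 1.27% and 0.556% for those labelled wild type. Venous-like cells were the deepest, with medians of 8819.5 and 11415 UMIs against 3026 and 4685 UMIs in remaining cells, and the part of depth in these differences was not tested.

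**Figure D2:**
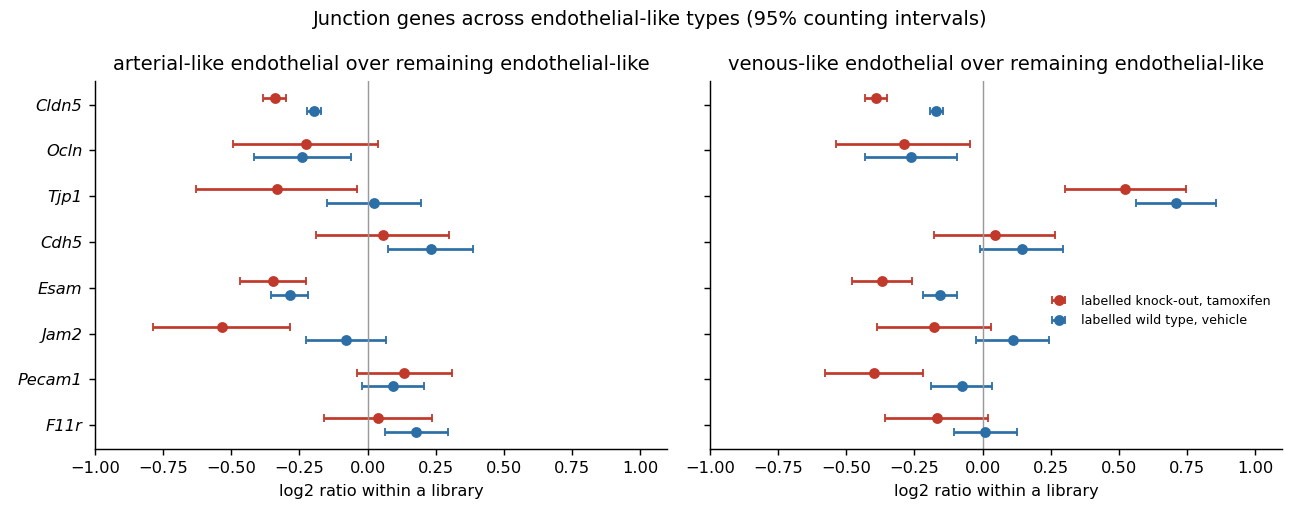
Log2 ratio of each gene in arterial-like (left) and venous-like (right) cells over the remaining endothelial-like cells of the same library, with 95% counting intervals; red, knock-out-labelled library; blue, wild-type-labelled library. Tjp1 lay at 0.52 and 0.71 in venous-like cells, and Cldn5, Esam and Ocln lay below 0 in both types. The venous-like values of the knock-out-labelled library depend on how the cells were grouped.

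Mural-like cells, named by markers of the pericytes and smooth muscle cells that wrap the endothelium, carried RNA of all 8 genes. Levels were below those of endothelial-like cells, except that the intervals of Tjp1, and of F11r under the wild-type label, reached equality. Cldn5 had 4848 CPM (4696 to 5003) in mural-like cells labelled knock-out and 4746 CPM (4651 to 4842) in those labelled wild type, or 65.0% and 68.0% of the endothelial-like level. Ocln stood at 60.7% and 65.4%, Esam at 66.0% and 75.2%, Pecam1 at 63.7% and 67.1% and Jam2 at 63.8% and 76.9%, knock-out label first. None of the 8 was past 2-fold below endothelial-like cells, against 1.97% of genes under the knock-out label and 0.311% under the wild-type label, and none was past 2-fold in either direction, against 9.12% and 4.38%.

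These levels were close to those of endothelial genes in general. The 17 other endothelial markers stood at a median of 63.3% (range 50.8% to 85.1%) of their endothelial-like level in mural-like cells labelled knock-out and 69.9% (54.3% to 94.3%) in those labelled wild type. Their summed level was 13955 and 13976 CPM, and none of the 17 was at 0. Only Tjp1, at 94.1% and 95.1%, and F11r under the wild-type label, at 97.1%, lay above these ranges, each with a counting interval that held the top of the range. Whether endothelial RNA in mural-like barcodes came from free RNA, attached endothelium or doublets was not tested.

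The 2 kinds of mural-like cells differed in the same way. Cells led by the contractile gene Tagln (57 and 98) had 3620 CPM of Cldn5 under the knock-out label and 3958 CPM under the wild-type label, with 9965 and 11583 CPM of the endothelial markers. Cells led by the pericyte channel gene Kcnj8 (64 and 84) had 5714 and 5438 CPM of Cldn5, with 16769 and 16077 CPM of the endothelial markers. The mural markers summed to 11151.5 and 8052 CPM in Tagln-led cells and to 5733 and 3480 CPM in Kcnj8-led cells. The endothelial sum was thus above the mural sum in all but the Tagln-led cells labelled knock-out. Tjp1 had 174 and 133 CPM in Tagln-led cells and 198 and 182 CPM in Kcnj8-led cells, knock-out label first.

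Between the libraries no member was past 1.5-fold in mural-like cells, against 14.2% of 6825 genes. The log2 ratios ran from -0.16 (-0.30 to -0.01) for Esam to 0.43 (0.05 to 0.80) for Ocln. Cdh5 had 0.37 (0.06 to 0.67), and the intervals of Cldn5, Tjp1, Jam2, Pecam1 and F11r reached equality. With 121 and 182 cells these ratios are the least precise of the 3 classes. With each library clustered on its own Ocln stood at -0.88, and with cells thinned to 1500 UMIs Cdh5 stood at -0.30.

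Microglia-like cells, which do not form endothelial junctions, still carried RNA of all 8 genes. Cldn5 had 782 CPM (760 to 805) in microglia-like cells labelled knock-out, against 2468 CPM (2443 to 2493) in those labelled wild type, a log2 ratio of -1.66 (-1.70 to -1.61). Esam had 99.5 CPM (91.7 to 108) and 348 CPM (339 to 357), at -1.81 (-1.93 to -1.68). Ocln had 12.7 CPM (10.1 to 15.9) and 22.8 CPM (20.5 to 25.3), at -0.84 (-1.21 to -0.48). Cdh5 had 19.6 CPM (16.3 to 23.4) and 29.8 CPM (27.1 to 32.6), at -0.60 (-0.91 to -0.31). These 4 were past 1.5-fold, all lower in the knock-out-labelled library, against 20.4% of 5743 genes past it in either direction and 12.4% lower.

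The remaining members differed by less than 1.5-fold. Jam2 had 73.2 CPM and 93.7 CPM, at -0.36 (-0.51 to -0.20), and Pecam1 had 54.7 CPM and 73.0 CPM, at -0.42 (-0.60 to -0.24). Tjp1 was level at 59.8 CPM under the knock-out label and 59.3 CPM under the wild-type label, at 0.01 (-0.17 to 0.19). F11r was the only member with an interval above 0: it had 681 CPM (661 to 702) and 492 CPM (481 to 503), at 0.47 (0.42 to 0.53).

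**Figure D3:**
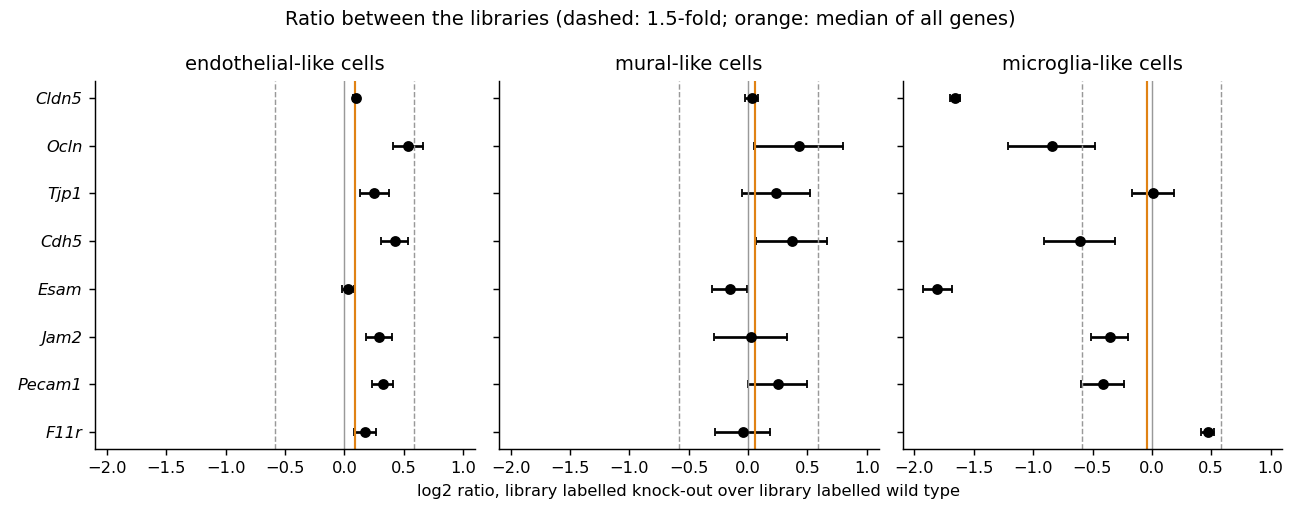
Log2 ratio of each gene between the knock-out-labelled library and the wild-type-labelled library in endothelial-like, mural-like and microglia-like cells, with 95% counting intervals; dashed lines mark 1.5-fold and the orange line the median of all genes. Esam and Cldn5 lay at -1.81 and -1.66 in microglia-like cells and at 0.03 and 0.10 in endothelial-like cells.

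The level of vessel RNA in general differed between the 2 sets of microglia-like cells in the same direction. Summed over the 17 other endothelial markers, microglia-like cells held 2391 CPM under the knock-out label and 6530 CPM under the wild-type label, with no marker at 0 in either. Each marker was therefore put as a percentage of its own endothelial-like level in the same library. The markers had a median of 9.76% (4.2% to 41.3%) in the knock-out-labelled library and 29.7% (18.4% to 56.1%) in the wild-type-labelled library. The highest was Ptprb, an endothelial receptor phosphatase, in both, followed by Egfl7 at 14.9% and 45.6%.

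On that scale Cldn5 stood at 10.5% (10.2 to 10.8) under the knock-out label and 35.4% (34.9 to 35.8) under the wild-type label, or 1.07 and 1.19 times the marker median. Esam stood at 10.2% and 36.6%, Pecam1 at 13.9% and 23.2% and Cdh5 at 8.65% and 17.6%. Ocln stood at 6.52% and 16.9%. Under the wild-type label both Ocln and Cdh5 were below every marker, with intervals that reached the lowest of them, Slco1c1 at 18.4%. The lower Cldn5, Esam, Ocln and Cdh5 of microglia-like cells labelled knock-out thus stood beside a lower level of the whole marker list. With background taken out at a size set by that list, all 4 were left at 0 CPM in the knock-out-labelled library, and in the wild-type-labelled library Ocln and Cdh5 were left at 0, Esam at 72.2 CPM and Cldn5 at 410 CPM, so none of the 4 had a ratio. Tjp1, Jam2 and F11r were left in both libraries, with ratios of 2.85, 0.33 and 0.29, and the Jam2 ratio was thus above 0. The Tjp1 ratio rests on 41.6 CPM left under the knock-out label and only 5.76 CPM left under the wild-type label.

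Tjp1 and Jam2 sat higher on the scale. Tjp1 had 30.0% (26.4 to 33.9) in the knock-out-labelled library, 3.07 times the marker median, and 35.4% (32.7 to 38.3) in the wild-type-labelled library, 1.19 times. Jam2 had 29.4% (26.2 to 32.9), 3.01 times the median, and 46.1% (43.2 to 49.2), 1.55 times. Both stayed inside the marker range. Under the knock-out label this was because of Ptprb for both, and under the wild-type label for Jam2 only, since Tjp1 lay below Egfl7 there. Without Ptprb, an alternative chosen after the data were seen, both lay above the range under the knock-out label, and under the wild-type label Jam2, at 46.1%, lay above Egfl7, at 45.6%, with an interval that held the Egfl7 value.

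F11r lay far above the range, at 205% (193 to 218) under the knock-out label and 167% (160 to 174) under the wild-type label. It was the only member above the highest marker in either library, where 75.9% of 3256 genes and 79.5% of 3113 genes at 50 CPM in endothelial-like cells lay. From the other side, F11r in endothelial-like cells stood at 48.7% and 59.9% of its microglia-like level, while the 12 microglia markers stood at a median of 12.2% (9.31% to 16.8%) and 34.4% (23.5% to 49.4%) there. Its RNA was thus above the range of the other class's markers in both directions and in both libraries. Most genes at that level lay above the endothelial range, so F11r does not stand apart there. The share of all genes above the microglia marker range was not counted. F11r was the only member lower in endothelial-like than in microglia-like cells, with log2 ratios of -1.04 (-1.13 to -0.95) and -0.74 (-0.80 to -0.68).

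**Figure D4:**
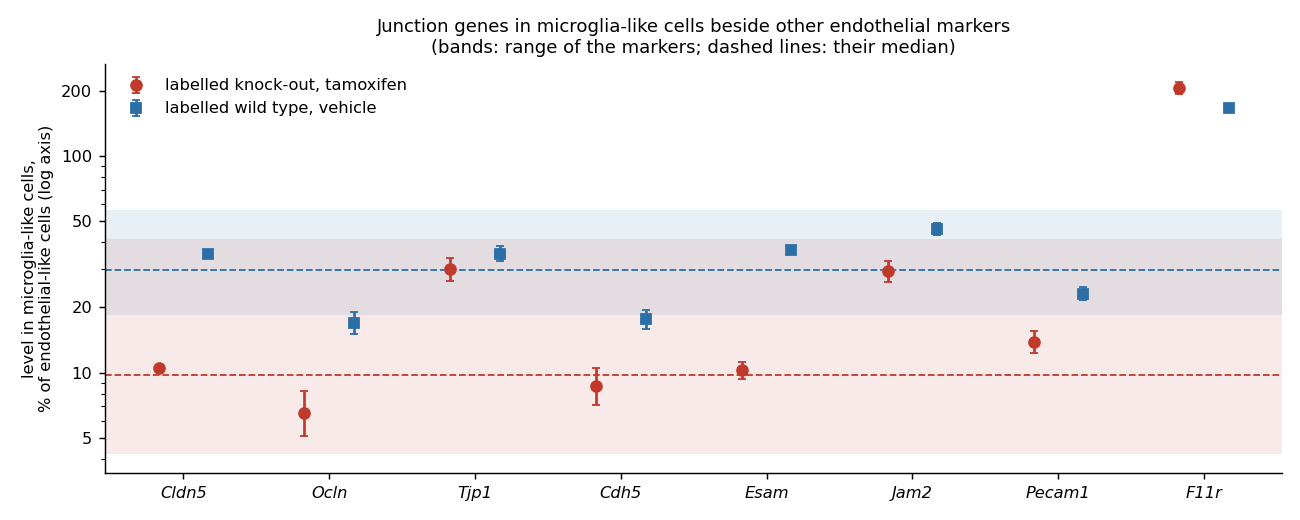
Level of each gene in microglia-like cells as a percentage of its level in endothelial-like cells of the same library (log axis), with 95% counting intervals; red circles, knock-out-labelled library; blue squares, wild-type-labelled library. Bands give the range and dashed lines the median of 17 other endothelial markers (9.76% and 29.7%); F11r, at 205% and 167%, lies above both bands.

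The other 7 genes were higher in endothelial-like than in microglia-like cells of both libraries. Past 2-fold these were 7 of 8 under the knock-out label, against 24.8% of all genes, and 7 of 8 under the wild-type label, against 15.1%. F11r was past 2-fold lower under the knock-out label, against 14.7% of genes. Ocln had the largest log2 ratios, 3.94 (3.60 to 4.29) and 2.56 (2.40 to 2.73), and Jam2 under the wild-type label the smallest above 0, 1.12 (1.02 to 1.21). TMM moved every one of these ratios by -0.33 under the knock-out label and -0.22 under the wild-type label, which put Jam2 at 0.90 under the wild-type label, short of 2-fold.

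Cldn5 RNA in the cells named microglia-like was spread over the cells rather than held by a few. A cluster with markers of both microglia and endothelium (137 and 435 barcodes) had been left unnamed. The spread therefore describes only the cells left in the class. In cells thinned to 1500 UMIs, a Cldn5 UMI was found in 68.0% of microglia-like cells labelled knock-out and 97.6% of those labelled wild type, with means of 1.17 and 3.65 UMIs and variances of 1.08 and 1.02 times the mean. An F11r UMI was found in 65.5% and 52.6%, with variances of 1.07 and 1.05 times the mean. A variance near the mean is what counting alone gives, and the source of the Cldn5 RNA was not tested.

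Microglia-like cells were also split into 3 equal parts by their share of endothelial-marker UMIs, a split chosen after the data were seen. In the lowest and the highest part, the summed markers stood at 1556 and 3343 CPM under the knock-out label and at 5396 and 7699 CPM under the wild-type label, a spread to which counting adds because the same UMIs made the split. F11r had 678 CPM in the lowest and 721 CPM in the highest part under the knock-out label, and 473 and 502 CPM under the wild-type label. Cldn5 had 746 and 874 CPM, and 2405 and 2535 CPM, in the same order. F11r in endothelial-like cells was as flat when those were split by microglial markers, with 326 and 343 CPM under the knock-out label and 300 and 295 CPM under the wild-type label.

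**Figure D5:**
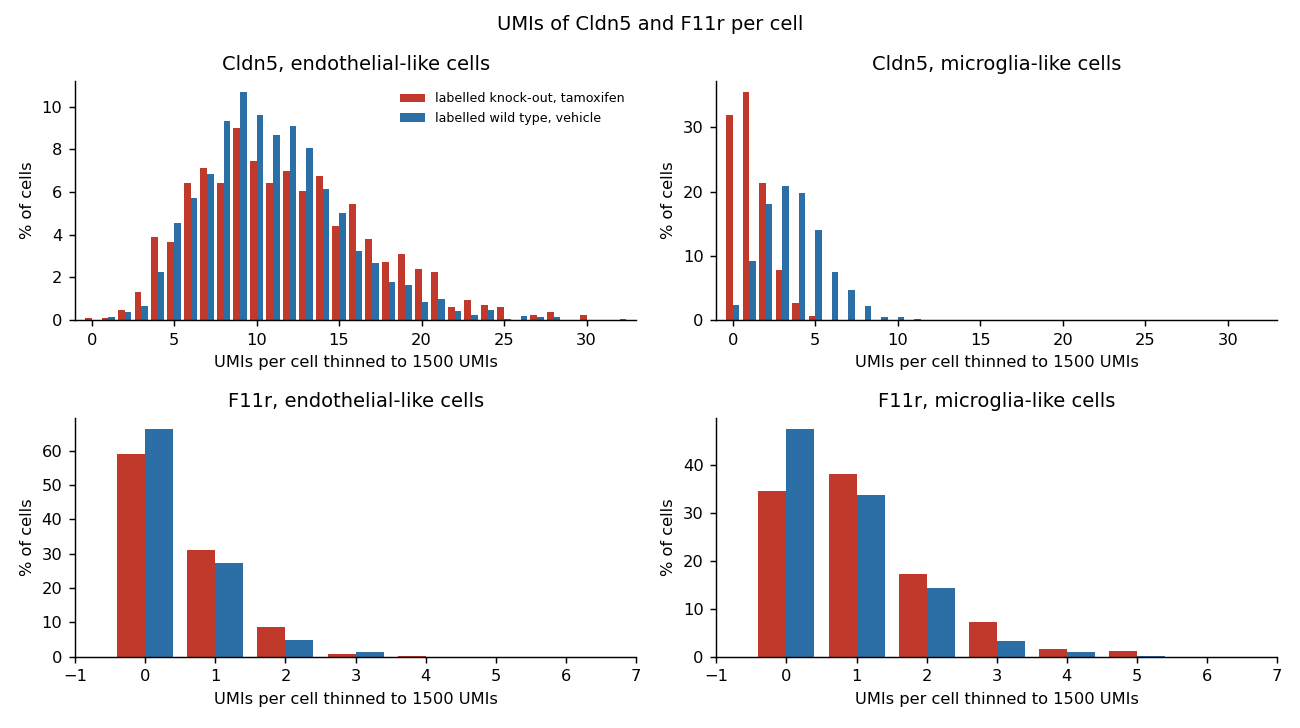
Percentage of cells by the number of Cldn5 (top) and F11r (bottom) UMIs per cell, each cell thinned to 1500 UMIs, in endothelial-like (left) and microglia-like (right) cells; red, knock-out-labelled library; blue, wild-type-labelled library. Cldn5 averaged 1.17 and 3.65 UMIs in microglia-like cells, and 11.7 and 10.9 UMIs in endothelial-like cells.

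Small classes held few UMIs of most members. In oligodendrocyte-like cells (8 and 18) Cldn5 stood at 10.3% and 30.1% of its endothelial-like level, close to the values in microglia-like cells of the same library. F11r stood at 20.1% there under the knock-out label, from 2 UMIs, and at 40.8% under the wild-type label, from 16 UMIs. In ependymal-like cells (28 and 19) Cldn5 stood at 13.9% and 45.8% and F11r at 45.7% and 55.4%. Ocln stood at 36.4% in ependymal-like cells labelled knock-out, from 15 UMIs, where the endothelial markers had a median of 14.4% and a highest value of 53.5%.

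Neutrophil-like cells (5 and 25) had F11r at 203% and 125% of the endothelial-like level, from 20 and 93 UMIs. These cells also held 31934 and 25136 CPM of the microglia markers, beside 40568 and 36282 CPM in microglia-like cells. Cycling-like cells (17 and 23), with 34637 and 30268 CPM of the microglia markers and Gzma and Ccl5 as leading genes, had F11r at 162% and 131%. Erythrocyte-like barcodes (73 and 71) held Cldn5 at 61.2% and 68.2% and F11r at 70.4% and 67.8%, and their endothelial markers had medians of 63.3% and 68.3%. The unnamed cluster (137 and 435 barcodes), which carried markers of both microglia and endothelium and had 44 and 150 of the highest doublet scores, held Cldn5 at 57.2% and 67.7% and F11r at 146% and 129%.

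Over 17 profiles of cells (10 classes or types by library, those with at least 20 cells), members other than F11r ran together, with Pearson correlations of log2(CPM + 10) from 0.776 (Ocln with Esam) to 0.996 (Cldn5 with Esam). F11r ran from -0.514 with Ocln to -0.107 with Jam2. Profiles of 1 library share its depth and its free RNA, so these values describe the layout of RNA only. The genes most like Cldn5 were Degs2 (0.995), Abcg2, the drug efflux pump of brain vessels (0.991), and Vwa1 (0.989), and those most like Esam were Abcg2 (0.992), Degs2 (0.991) and Wfdc1 (0.984). Cdh5 ran closest to Mllt4 (0.985) and Ctnnb1 (0.982), which encode afadin and β-catenin of the adherens junction, and to Nes (0.976). F11r ran closest to Casp8 (0.941), Adgrg1 (0.931) and Ier2 (0.927).

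Ocln ran with Mxra7 (0.973), Snx3 (0.961) and Sema7a (0.960), and Tjp1 with Fry (0.959), Fn1 (0.951) and Tnfsf10 (0.948). Jam2 ran with Slc31a1 (0.962), Ctnnbip1 (0.960) and Lef1 (0.960), and Pecam1 with Tpm4 (0.978), Lsr (0.969) and Nes (0.969).

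Other genes of the junctions were set beside the members in endothelial-like cells, where 5.26% of all genes were past 1.5-fold higher under the knock-out label. Of 25 other tight junction genes in the matrices, 8 had 20 CPM or more in either library; all 8 ratios were above 0, against 61.5% of all genes, with a median of 0.44, and 2 were past 1.5-fold. Of these, Mpp5 (PALS1, a polarity scaffold) had 38.3 CPM under the knock-out label and 23.9 CPM under the wild-type label, at 0.68 (0.39 to 0.97). Lsr, the tricellular junction protein angulin-1, had 463 and 348 CPM, at 0.41 (0.33 to 0.49). Cgnl1 (paracingulin) had 157 and 121 CPM, at 0.38 (0.24 to 0.51), Pard3 had 36.1 and 26.1 CPM, at 0.47, and Magi3 had 21.9 and 14.98 CPM, at 0.55.

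Of 16 other adherens junction genes, 11 were at 20 CPM or more; 10 ratios were above 0, with a median of 0.30, and 3 were past 1.5-fold. These were Cdh2 (N-cadherin, 21.7 and 11.5 CPM, at 0.91), Ctnnd1 (p120-catenin, 66.0 and 40.4 CPM, at 0.71) and Sorbs3 (vinexin, 34.3 and 21.4 CPM, at 0.68). Ctnnb1 had 372 CPM and 312 CPM, at 0.25 (0.17 to 0.34), Ctnna1 (α-catenin) 185 and 144 CPM, at 0.36, Mllt4 147 and 119 CPM, at 0.30, and Vcl (vinculin) 50.5 and 36.5 CPM, at 0.47.

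Of 21 other border and junction regulator genes, 15 were measured; 12 ratios were above 0, with a median of 0.22, and none was past 1.5-fold. The GTPase genes Rap1a and Rap1b had 301 and 267 CPM, at 0.17, and 311 and 324 CPM, at -0.06. Icam2, an endothelial adhesion molecule, had 302 and 286 CPM, at 0.08, Pcdh1 (protocadherin-1) 53.0 and 35.4 CPM, at 0.58, Krit1 90.3 and 68.3 CPM, Rasip1 112 and 85.2 CPM and Arhgef15 89.1 and 69.9 CPM. In microglia-like cells, where 12.4% of all genes were past 1.5-fold lower and 7.97% higher under the knock-out label, 2 of the 2 measured tight junction genes were past 1.5-fold lower under the knock-out label, as were 2 of 7 adherens junction genes and 5 of 11 regulator genes, with 1 adherens junction gene, Ctnnd1, higher at 30.1 and 13.7 CPM.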

How the data were processed

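Spinal cord cells sorted for fluorescence, 1 library per label, were profiled with 10x Chromium 3′ v2 chemistry, per the labels' protocols. The deposited values are raw UMI counts per gene and barcode, with no normalization that the labels record. The submitters' processing notes name Seurat 2.1.0, STAR and Cell Ranger 2.0.1, with 2 builds, mm10 and GRCm38.p5, without saying what each was used for. The sources used here do not say how the authors selected barcodes or handled strand.

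The 8 members, the other gene lists and the markers were chosen with earlier results of these data known. A barcode needed 300 genes or more and a mitochondrial share of 10% or less; 8 barcodes failed, all of them knock-out-labelled. Both libraries were clustered together with scanpy 1.11.5 and leidenalg 0.10.2, without batch correction, on 2000 variable genes that left out the junction genes, Runx1 and sex-linked genes, with 30 components, 15 neighbours and a resolution of 0.5, which gave 12 clusters. Vascular clusters were split again at a resolution of 0.8 on values standardised within each library, into 8 sub-clusters. A cluster took a name from 20 marker lists when at least 2 markers of 1 list were among its top 10 genes and at least 50% and 3 of that list were on, or when no rival list reached 60% of its share. This scoring was set after clusters were seen. Doublets were not removed for the values reported first. As an alternative, barcodes with the highest Scrublet scores were dropped at 0.8% per 1000 barcodes.

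Counts were summed by class and library and divided by the total to give CPM. Intervals are exact at 95% (Poisson for CPM, Clopper-Pearson for shares, conditional binomial for ratios; scipy 1.17.1). They cover counting error only and leave out variation between mice and libraries. A gene was measured at 20 CPM in either group, and called past 1.5-fold between libraries or 2-fold between classes with an interval off equality. With background taken out, or with each cell given equal weight, a call needed the fold alone, for members and all genes alike. The calculation was run on simulated Poisson counts, the model that the intervals assume, with no variation between cells, mice or libraries. That run checks the arithmetic only. TMM factors from edgeR 4.0.16 served as a scaling alternative only. Named genes were the 8 members, per other junction list up to 4 with the largest ratio and the 3 highest levels in endothelial-like cells, and the 3 genes most like each member; Ctnnd1 in microglia-like cells, Egfl7 and Ptprb were named after their values were seen. Of the genes that the rule names, 1 is not reported here. Gene positions are from GENCODE M21, and promoters from RefSeq. In all, 18 alternatives were tried, 4 of them chosen after the data were seen.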

Additional observations from a re-analysis of the deposited data

Results flagged for a closer look

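In 5 of the 8 genes the log2 ratio of the knock-out over the wild-type label lay above 0 in endothelial-like cells and below 0 in microglia-like cells of the same libraries, with both counting intervals off 0. Cldn5 had 0.10 and -1.66, Ocln 0.54 and -0.84, Cdh5 0.43 and -0.60, Jam2 0.29 and -0.36 and Pecam1 0.32 and -0.42, endothelial-like cells first. Esam had the same signs, at 0.03 and -1.81, but its interval in endothelial-like cells reached 0. Over all genes, 61.5% of 6291 ratios were above 0 in endothelial-like cells and 46.6% of 5743 in microglia-like cells. The share of all genes with opposite signs and both intervals off 0 was not counted, so the 5 genes cannot be read against it. With 1 library per label the difference between the classes was not tested. Beside it, the 17 other endothelial markers summed to 22401 and 20680 CPM in endothelial-like cells of the knock-out-labelled and wild-type-labelled libraries, and to 2391 and 6530 CPM in microglia-like cells. The opposite signs were not kept under every alternative: with background taken out Cldn5 and Pecam1 stood at -0.21 and -0.07 in endothelial-like cells, Jam2 stood at 0.33 in microglia-like cells, and Cldn5, Ocln, Cdh5 and Pecam1 had no ratio there.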

How the results depend on the processing

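Of 177 alternative values of the counts of members past a limit, 164 held and 13 moved. With cells thinned to 1500 UMIs, 1 member was past 1.5-fold in endothelial-like cells (Cdh5, at 0.66), against 14.7% of all genes. In mural-like cells 1 was past it (Tjp1, at 0.78), against 7.5%. In the thinned cells 2 and 1 members were past 2-fold lower in mural-like than in endothelial-like cells under the knock-out and wild-type labels. With each library clustered on its own, 3 members were past 1.5-fold in mural-like cells, against 18.9% of all genes. Under that clustering 4 members were past 2-fold lower in mural-like than in endothelial-like cells under the knock-out label. With background taken out, 1 member was past 1.5-fold in endothelial-like cells (F11r, at 0.62), against 7.12% of all genes. In microglia-like cells 1 was past it (Tjp1, at 2.85, in place of the 4 lower members, which had no ratio), against 18.2%. Tjp1 then had only 5.76 CPM left under the wild-type label. Past 2-fold were 4 members between endothelial-like and microglia-like cells labelled knock-out, and 1 in venous-like cells labelled wild type (Tjp1, at 1.07). A gene that the subtraction left at 0 was given no ratio, a rule set after the data were seen, and it lowers these counts by construction. Without Ptprb, 3 and 2 members lay above the marker range in microglia-like cells under the knock-out and wild-type labels. In mural-like cells led by Kcnj8, 1 member was past 1.5-fold (Ocln, at 0.63), against 12.3% of all genes. For the 2-fold counts between classes and the range without Ptprb, no share of all genes is given under these alternatives. Those counts are not read as results about the members. The cause of the other moves was not tested. Ratios that were not past a limit changed sign more freely, and the main ones stand beside their results. No paired analysis was possible because each label has 1 library. Counting depth limits Ocln, with 94 and 176 UMIs in mural-like cells and 78 and 353 in microglia-like cells, knock-out label first.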
